A study of Mus musculus with 12 samples.

Results

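Type I interferon turns on a broad set of antiviral genes, and 9 of them are described here in heart muscle cells of dystrophic mice: Irf7, Irf9, Stat2, Ifit1, Ifit2, Ifit3, Isg15, Oasl2 and Bst2. They were taken by symbol from a deposited table of 18530 genes, all 9 were found, and all 9 passed the filter on low values that left 12798 genes for testing (at least 1 TPM, a length-normalised transcript abundance, in at least 3 libraries). Poly-A RNA came from frozen pellets of cardiomyocytes isolated from hearts at 14 weeks of age. The 12 libraries fell into 4 groups of 3: mdx:Utrn+/- with PB1046, mdx:Utrn+/- with saline, mdx with PB1046, and mdx with saline. PB1046, a long-acting analog of vasoactive intestinal peptide, or saline was given every other day between 4 and 12 weeks of age. The labels call the dose of the 6 PB1046 libraries high, and of the 2 doses in the protocol (0.75 or 1.5 mg/kg) they do not say which this was. All 4 groups share the mdx mutation of dystrophin, and the mdx:Utrn+/- groups lack in addition 1 copy of Utrn, which encodes the dystrophin homolog utrophin. Hence each comparison is between dystrophic hearts. The labels do not say that each library is a separate animal, so p-values measure only the spread between these samples.

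Interferons alpha and beta bind the receptor chains Ifnar1 and Ifnar2, and the kinases Jak1 and Tyk2 pass the signal on to the complex ISGF3, which holds Stat2 and Irf9. It binds a short element, the interferon-stimulated response element (ISRE), in the promoters of its target genes. Many cells, endothelial cells and macrophages among them, keep a low basal level of these transcripts without infection. The study asked about transcripts of the cAMP-PKA-CREB pathway and of NF-kB. The interferon genes stand beside these pathways, since NF-kB and interferon regulatory factors act together at some promoters.

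The promoters show the element by which these genes are known. In RefSeq sequence of GRCm38.p6 (mm10), from 250 bases before to 50 after each annotated start, the ISRE core, taken as GAAA and GAAA with any 2 bases between and searched on both strands, occurred in 1131 of 32851 promoters (3.44%). All 9 genes matched the RefSeq table, Ifit2 and Irf9 with 2 starts each, and 5 of them held the core: Isg15, Bst2, Ifit1, Ifit3 and Stat2. Isg15 held 3 overlapping copies, beginning 78, 72 and 66 bases upstream of the start. Bst2 held a pair that overlap, at 130 and 124 bases. Ifit1 held 2 on the other strand, at 104 and 85 bases, and Ifit3 likewise at 156 and 122 bases. Stat2 held 1, at 222 bases. The 250 bases before the start of these 5 genes are printed to show where the copies lie, 5′ to 3′ on the gene's strand and with the matches in capitals. They span chr4:156200819-156201068 (minus strand) for Isg15, chr8:71537473-71537722 (minus strand) for Bst2, chr19:34640639-34640888 (plus strand) for Ifit1, chr19:34583279-34583528 (plus strand) for Ifit3 and chr10:128270248-128270497 (plus strand) for Stat2.
Isg15: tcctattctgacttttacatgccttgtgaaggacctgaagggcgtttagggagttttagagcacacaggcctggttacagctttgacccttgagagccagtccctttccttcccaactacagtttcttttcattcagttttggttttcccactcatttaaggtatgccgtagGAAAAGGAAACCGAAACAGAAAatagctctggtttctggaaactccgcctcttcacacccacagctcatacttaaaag
Bst2: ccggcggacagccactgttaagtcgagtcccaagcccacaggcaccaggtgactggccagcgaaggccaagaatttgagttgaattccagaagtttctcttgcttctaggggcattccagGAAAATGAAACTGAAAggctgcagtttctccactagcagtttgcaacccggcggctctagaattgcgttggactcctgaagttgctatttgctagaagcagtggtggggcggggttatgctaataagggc
Ifit1: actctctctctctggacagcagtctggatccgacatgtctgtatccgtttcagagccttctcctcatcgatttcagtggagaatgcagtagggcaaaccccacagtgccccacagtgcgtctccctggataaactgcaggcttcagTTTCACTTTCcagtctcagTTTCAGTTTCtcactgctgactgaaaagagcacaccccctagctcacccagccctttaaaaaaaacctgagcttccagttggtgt
Ifit3: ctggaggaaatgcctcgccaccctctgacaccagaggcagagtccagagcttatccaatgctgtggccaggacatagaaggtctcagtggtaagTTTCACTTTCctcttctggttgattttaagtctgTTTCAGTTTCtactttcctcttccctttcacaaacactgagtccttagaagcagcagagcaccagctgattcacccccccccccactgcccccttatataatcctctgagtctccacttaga
Stat2: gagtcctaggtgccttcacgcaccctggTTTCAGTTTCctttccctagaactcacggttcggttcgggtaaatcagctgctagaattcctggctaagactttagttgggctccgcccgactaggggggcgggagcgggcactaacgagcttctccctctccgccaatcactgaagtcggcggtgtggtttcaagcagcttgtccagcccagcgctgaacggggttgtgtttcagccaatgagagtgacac

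In these lines each reverse-strand match of Ifit1, Ifit3 and Stat2 reads TTTC, any 2 bases and TTTC. Each match of Isg15 and Bst2 reads GAAA, any 2 bases and GAAA. The gamma-activated site TTCNNNGAA, an element of interferon gamma target genes, occurred in 8.3% of all promoters and upstream of Ifit2 and Bst2. In Bst2 it starts 136 bases upstream and overlaps the first ISRE core. Ifit2 held the NF-kB motif (GGGA and TTCC with any 2 bases between) 247 bases before 1 of its starts, a match found in 1.47% of promoters, and its gamma-activated site overlaps it. The cAMP response element TGACGTCA occurred in 1.79% of promoters and in none of the 9 genes. Irf7, Irf9 and Oasl2 held none of these letters in this window, which says nothing of sites elsewhere. Counted by gene, the ISRE core was present in 3.99% of 27025 genes, against 5 of 7 genes with a promoter in the list of other OAS, RNase L and PKR effectors and 12 of 27 in the list of other type I effectors. The other IFIT and IFITM effectors held it in 5 of 7 genes and the interferon gamma effectors in 5 of 10. It was held by 3 of 9 ligand genes, 3 of 11 sensors and adaptors and 1 of 10 receptor and signaling genes. The list of other interferon regulatory factors, which also holds Irf2bp2 and Irf2bpl, held it in 1 of 9 genes. Genes of Isg15 conjugation and removal held it in 0 of 3 cases.

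**Figure D1:**
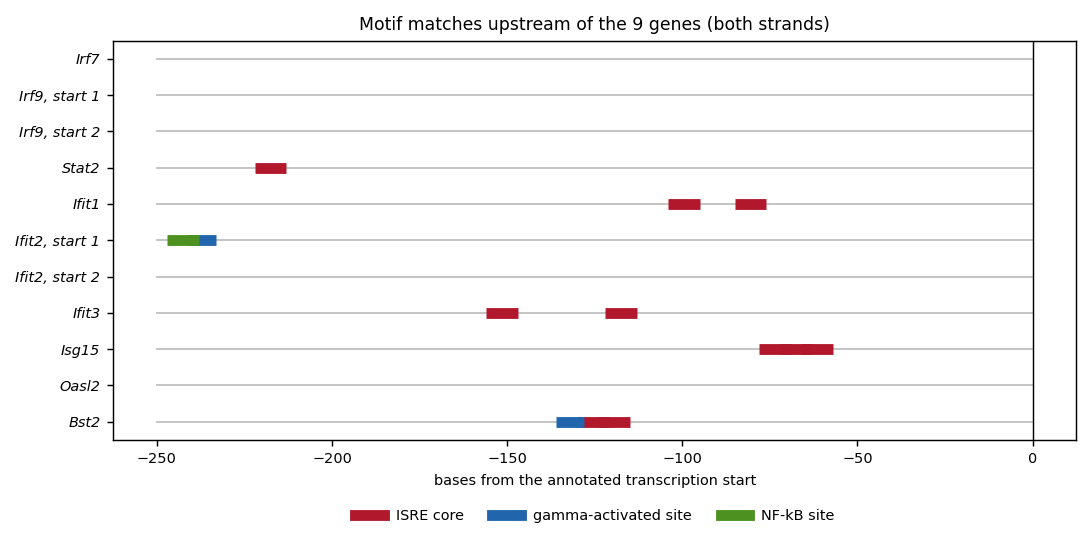
Motif matches in the 250 bases upstream of each annotated start of the 9 genes; the horizontal axis is the distance from the start in bases, and bars mark matches on either strand to the ISRE core, the gamma-activated site and the NF-kB motif. Isg15, Bst2, Ifit1, Ifit3 and Stat2 carry ISRE cores, and those of Isg15 lie nearest to the start.

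The libraries held 7234100 to 25458194 reads, recovered as whole numbers from the TPM. The members rested on between 47 reads (Isg15) and 1497 reads (Stat2) in a library. The cells matched their label: 12 cardiomyocyte markers summed to 104700 to 145600 TPM. Markers of other cells were present too, with 970.5 to 7272 TPM over 15 endothelial genes and 193.5 to 1351 TPM over 17 macrophage genes, while 11 lymphocyte genes summed to at most 12.8 TPM and 7 neutrophil genes to at most 22.9 TPM. Over 5 erythroid genes the sums were 19.1 to 1098 TPM, and over 9 smooth muscle and pericyte genes 131.7 to 442.8 TPM. In such bulk RNA, fewer cells of a type and less RNA per cell cannot be told apart. Utrn, the gene that defines the genotypes, was at 4.387, 9.92 and 6.214 TPM in mdx:Utrn+/- PB1046, at 3.315, 6.277 and 5.308 TPM in mdx:Utrn+/- saline, at 6.112, 17.1 and 18.29 TPM in mdx PB1046 and at 8.917, 9.244 and 11.3 TPM in mdx saline (replicates 1, 2 and 3). Under saline all mdx:Utrn+/- libraries lay below all mdx libraries, and under PB1046 the ranges overlapped.

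The 9 genes were high and low in largely the same libraries, and within both PB1046 groups this spread was wider than the differences between the group means. Their summed level was 100.6, 308.2 and 146.0 TPM in mdx:Utrn+/- PB1046 (replicates 1, 2 and 3, the order used throughout), and 143.7, 140.3 and 136.8 TPM in mdx:Utrn+/- saline. It was 111.9, 356.3 and 375.4 TPM in mdx PB1046, and 135.7, 256.4 and 211.9 TPM in mdx saline. Thus 5 libraries lay between 211.9 and 375.4 TPM and the other 7 between 100.6 and 146.0 TPM. Of the 5, 1 was mdx:Utrn+/- PB1046 (replicate 2), none was mdx:Utrn+/- saline, 2 were mdx PB1046 (replicates 2 and 3) and 2 were mdx saline (replicates 2 and 3). Mean sums were 184.9 ± 109.2 TPM in mdx:Utrn+/- PB1046, 140.3 ± 3.5 TPM in mdx:Utrn+/- saline, 281.2 ± 146.9 TPM in mdx PB1046 and 201.3 ± 61.1 TPM in mdx saline (SD, n = 3 each). After scaling by trimmed-mean factors of 0.842 to 1.321 the same 5 libraries stood at 207.7 to 286.5 TPM and the other 7 at 117.9 to 168.6 TPM. For 7 of the 9 genes these were also the 5 highest libraries, and for Irf7 and Isg15 they were 4 of the 5 highest.

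**Figure D2:**
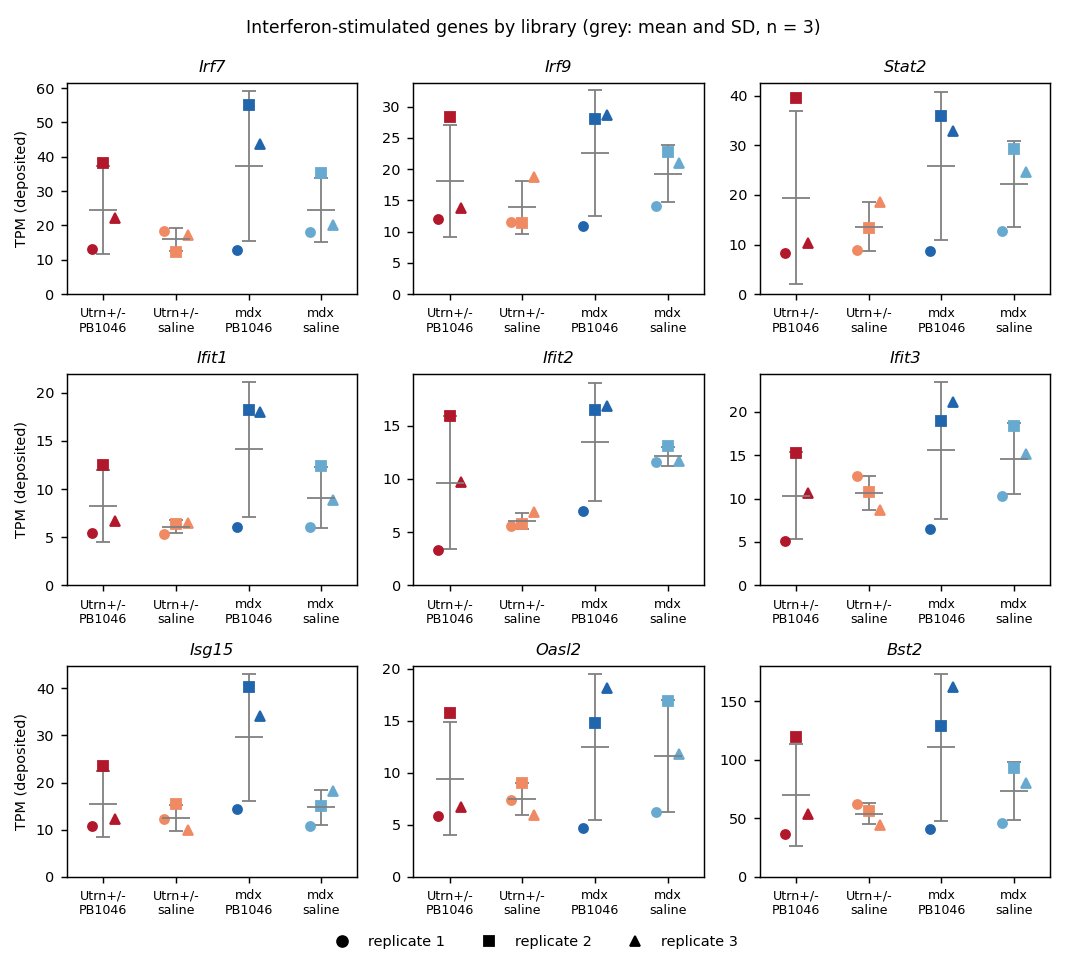
Deposited TPM of each of the 9 genes (vertical axes, starting at 0) in the 12 libraries, grouped from left to right as mdx:Utrn+/- PB1046, mdx:Utrn+/- saline, mdx PB1046 and mdx saline; symbols mark replicates 1 to 3, and grey lines are the mean and SD (n = 3). Replicate 2 of mdx:Utrn+/- PB1046 and replicates 2 and 3 of mdx PB1046 stand high in most panels, while mdx:Utrn+/- saline stays low.

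By level per transcript length, averaged over the 12 libraries, Bst2 was first with 76.8 TPM and exceeded every other member in 12 of 12 libraries. Irf7 (25.6 TPM), Stat2 (20.3 TPM), Irf9 (18.5 TPM) and Isg15 (18.1 TPM) came next. Their order was not stable: Irf7 was above Stat2 in 8 of 12 libraries, Stat2 above Irf9 in 6, and Irf9 above Isg15 in 7. Ifit3 (12.8 TPM), Ifit2 (10.3 TPM), Oasl2 (10.3 TPM) and Ifit1 (9.38 TPM) were lowest. Isg15 was above Ifit3 in 10 libraries, Ifit3 above Ifit2 in 9, Ifit2 above Oasl2 in 6 and Oasl2 above Ifit1 in 9. The ratio of the highest to the lowest library was 2.64 for Irf9 and 3.41 to 5.04 for the other 8, against a median of 2.55 over all tested genes.

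Irf7 encodes the factor that amplifies production of type I interferon and is itself induced by it (chr7:141263183-141266424, minus strand, mm10). Its level was 13.1, 38.3 and 22.3 TPM in mdx:Utrn+/- PB1046, and 18.4, 12.2 and 17.2 TPM in mdx:Utrn+/- saline. It was 12.9, 55.2 and 43.7 TPM in mdx PB1046, and 18.2, 35.3 and 20.2 TPM in mdx saline. The groups overlapped, and the mdx PB1046 libraries held both the highest value of the series and 1 of the lowest. PB1046 minus saline was 0.35 in mdx:Utrn+/- (95% interval -0.53 to 1.22) and 0.23 in mdx (-0.65 to 1.10) on the scale log2(scaled TPM + 1), on which all fitted differences are given.

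Stat2 and Irf9 encode the subunits that set ISGF3 apart from other STAT complexes. Stat2 (chr10:128270576-128292849, plus strand) was at 8.39, 39.6 and 10.4 TPM in mdx:Utrn+/- PB1046, at 8.86, 13.3 and 18.6 TPM in mdx:Utrn+/- saline, at 8.70, 35.9 and 32.8 TPM in mdx PB1046 and at 12.7, 29.3 and 24.7 TPM in mdx saline. Irf9 (chr14:55603985-55610030, plus strand) was at 12.0, 28.4 and 13.8 TPM in mdx:Utrn+/- PB1046, at 11.5, 11.4 and 18.8 TPM in mdx:Utrn+/- saline, at 10.9, 28.0 and 28.7 TPM in mdx PB1046 and at 14.2, 22.7 and 20.9 TPM in mdx saline. Both were high in the same libraries, and their Pearson r of 0.94 over 12 libraries was the highest of the 36 pairs of members. Stat2 had the widest interval of the 9 genes in each comparison, for example -1.21 to 0.96 around -0.12 for PB1046 minus saline in mdx.

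The IFIT genes lie side by side on chromosome 19 and encode proteins with tetratricopeptide repeats that bind foreign RNA. Ifit1, which recognises RNA caps that lack host methylation (chr19:34640889-34650009, plus strand), was at 5.45, 12.5 and 6.71 TPM in mdx:Utrn+/- PB1046, at 5.34, 6.42 and 6.53 TPM in mdx:Utrn+/- saline, at 6.05, 18.2 and 18.0 TPM in mdx PB1046 and at 6.06, 12.4 and 8.89 TPM in mdx saline. In 7 libraries it stayed between 5.34 and 6.71 TPM. Ifit3, which in human cells binds and stabilises Ifit1 (chr19:34583529-34588982, plus strand), was at 5.14, 15.2 and 10.6 TPM in mdx:Utrn+/- PB1046, at 12.6, 10.7 and 8.65 TPM in mdx:Utrn+/- saline, at 6.54, 18.9 and 21.1 TPM in mdx PB1046 and at 10.3, 18.4 and 15.1 TPM in mdx saline. Ifit3 was the member with a negative PB1046 difference in both genotypes, -0.28 in mdx:Utrn+/- and -0.21 in mdx, both within the error. The related genes Ifit3b, Ifit1bl1 and Ifit1bl2 were not analysed here. Any reads shared with them would make the levels of Ifit1 and Ifit3 uncertain.

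Ifit2 encodes an RNA-binding member of the family (chr19:34550694-34576534, plus strand). It was at 3.35, 15.9 and 9.73 TPM in mdx:Utrn+/- PB1046, at 5.54, 5.74 and 6.94 TPM in mdx:Utrn+/- saline, at 7.04, 16.5 and 16.9 TPM in mdx PB1046 and at 11.6, 13.1 and 11.7 TPM in mdx saline. Under saline the highest mdx:Utrn+/- library lay below the lowest mdx library, with means of 6.07 ± 0.75 TPM in mdx:Utrn+/- and 12.1 ± 0.87 TPM in mdx (SD, n = 3 each). Ifit2 was the only member of the 9 whose groups did not overlap in this comparison, beside 5.68% of all tested genes that lay wholly lower in mdx:Utrn+/- and 3.81% wholly higher. The fitted difference was -0.71 (95% interval -1.44 to 0.03), and it did not pass in limma (unadjusted p = 0.0596, adjusted p = 0.867). Under PB1046 the genotypes overlapped (-0.33, -1.07 to 0.41).

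Isg15 encodes a ubiquitin-like protein that is attached to other proteins (chr4:156199424-156200818, minus strand). It was at 10.7, 23.5 and 12.2 TPM in mdx:Utrn+/- PB1046, at 12.2, 15.5 and 9.99 TPM in mdx:Utrn+/- saline, at 14.5, 40.2 and 34.2 TPM in mdx PB1046 and at 10.8, 15.1 and 18.3 TPM in mdx saline. Replicates 2 and 3 of mdx PB1046 were the highest of the series, while replicate 1 lay within the range of mdx saline. Means were 29.6 ± 13.5 TPM in mdx PB1046 and 14.7 ± 3.80 TPM in mdx saline (SD, n = 3 each), and the fitted difference was 0.69 (SE 0.29, 95% interval 0.05 to 1.32). It did not pass in limma across all genes (unadjusted p = 0.0363, adjusted p = 0.999). The difference was 0.46 without mdx PB1046 replicate 2 and 0.98 without replicate 1. In mdx:Utrn+/- PB1046 minus saline was 0.078 (-0.56 to 0.71), and the difference between the responses of the genotypes was -0.61 (-1.51 to 0.29), which did not pass either (limma unadjusted p = 0.165, adjusted p = 1).

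Isg15 also made up a varying share of the summed level of the 9 genes. The share was 10.6%, 7.64% and 8.34% in mdx:Utrn+/- PB1046, 8.51%, 11% and 7.30% in mdx:Utrn+/- saline, 12.9%, 11.3% and 9.10% in mdx PB1046 and 7.92%, 5.89% and 8.64% in mdx saline. In mdx the PB1046 libraries all lay above the saline libraries, and in mdx:Utrn+/- they overlapped. Of the 9 shares 2 separated the treatments in mdx and 0 in mdx:Utrn+/-. The other was that of Ifit3, which lay lower, at 5.85%, 5.32% and 5.62% in mdx PB1046 against 7.58%, 7.16% and 7.13% in mdx saline. Shares within a library add up to the whole, so they do not vary independently. No background over other genes was computed for shares. For levels in this comparison, 3.42% of all tested genes lay wholly higher and 5.31% wholly lower with PB1046. These shares were chosen after their values were seen and carry no test.

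Oasl2, an oligoadenylate synthetase-like gene (chr5:114896934-114912245, plus strand), was at 5.85, 15.7 and 6.73 TPM in mdx:Utrn+/- PB1046, at 7.37, 9.06 and 5.94 TPM in mdx:Utrn+/- saline, at 4.65, 14.8 and 18.1 TPM in mdx PB1046 and at 6.19, 16.9 and 11.8 TPM in mdx saline. Its lowest and its highest library were both mdx PB1046. Bst2, known as tetherin because it holds budding virus at the cell surface (chr8:71534262-71537437, minus strand), was at 36.6, 119.1 and 53.5 TPM in mdx:Utrn+/- PB1046, at 61.8, 55.9 and 44.1 TPM in mdx:Utrn+/- saline, at 40.7, 128.6 and 161.8 TPM in mdx PB1046 and at 45.8, 93.3 and 80.3 TPM in mdx saline. All 4 groups overlapped for both genes. Bst2 and Oasl2 were each other's closest partner among the 9, with r = 0.91 over 12 libraries.

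With PB1046 in mdx, 4 of the 9 genes were higher than with saline and 5 lower, and 0 passed an adjusted p of 0.05. The background was 0% of 12798 genes called by limma, with 407 (3.18%) at an unadjusted p under 0.05, and 46.5% of genes higher. limma-voom on recovered reads also called 0 genes (429 at an unadjusted p under 0.05). The members' differences ran from -0.21 (Ifit3) to 0.69 (Isg15), with a median of -0.057 against -0.024 over all tested genes. Macrophage markers were higher in 16 of 17 cases (median 0.42), fibroblast markers higher in 10 of 12 (median 0.48) and cardiomyocyte markers lower in 11 of 12 (median -0.37). Erythroid markers were higher in 5 of 5 cases (median 1.89) and smooth muscle and pericyte markers in 8 of 9 (median 0.44). With the endothelial term the median of the 9 genes was -0.056. No member had groups that did not overlap, beside 3.42% of all genes wholly higher and 5.31% wholly lower. Without mdx PB1046 replicate 1 the median was 0.36 and all 9 were higher, and without replicate 2 it was -0.22 and 6 were lower.

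With PB1046 in mdx:Utrn+/-, 8 of the 9 genes were higher and Ifit3 was lower, and again 0 passed (limma called 0% of all genes, with 246, or 1.92%, at an unadjusted p under 0.05, and limma-voom 0, with 208). Over all genes 53.4% were higher. Differences ran from -0.28 (Ifit3) to 0.35 (Irf7), the median was 0.078 against 0.02 over all genes, and the smallest unadjusted p of a member was 0.404 (Irf7, limma, adjusted p = 1). The groups overlapped for all 9, beside 3.63% of all genes wholly higher and 2.12% wholly lower. Without replicate 2 of mdx:Utrn+/- PB1046, the library with 308.2 TPM, the median was -0.12. Endothelial markers moved with this comparison: 15 of 15 were higher, with a median of 0.60 and 0 called, while macrophage markers were lower in 16 of 17 cases (median -0.45). With the endothelial level as a term in the fit all 9 interferon genes were lower with PB1046, with a median of -0.19 and 0 called.

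Averaged over the genotypes, PB1046 minus saline had a median of 0.063 (-0.002 over all genes), with 6 genes higher and 3 lower beside 49.6% of all genes higher. Isg15 was again furthest from 0 (0.38, 95% interval -0.07 to 0.83, limma unadjusted p = 0.0882, adjusted p = 1). limma called 0% of all genes, and 319 (2.49%) had an unadjusted p under 0.05, while limma-voom called 0, with 332. For the difference of the PB1046 responses, mdx:Utrn+/- minus mdx, 5 genes were positive and 4 negative, with a median of 0.12 against 0.038 over all genes, of which 54.5% were positive. limma called 0% of all genes there (316, or 2.47%, at an unadjusted p under 0.05), and limma-voom called 0, with 275. That median was -0.36 without mdx PB1046 replicate 1 and 0.37 without replicate 2, so its sign rests on single libraries.

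In mdx:Utrn+/-, all 9 genes were lower than in mdx when averaged over treatments, by a median of -0.29 against -0.009 over all genes, 51.6% of which were lower. None passed: the members' adjusted p lay between 0.866 and 0.913 in limma, which called 0% of all genes (434, or 3.39%, at an unadjusted p under 0.05), and limma-voom called 0, with 431. Differences ran from -0.52 for Ifit2 (95% interval -1.04 to 0.01, unadjusted p = 0.0521) to -0.14 for Irf9 (-0.60 to 0.31). In each of the 12 refits that leave out a library all 9 genes stayed lower, with medians of -0.49 to -0.15. The 9 genes were high and low in largely the same libraries, so their directions are not 9 independent results in any comparison. The refits share most of their libraries and are not independent either. Endothelial markers were lower as well, 15 of 15, with a median of -0.40. By treatment their median was -0.65 under saline and -0.03 under PB1046. Fibroblast markers were lower in 12 of 12 cases (median -0.33) and cardiomyocyte markers higher in 12 of 12 (median 0.21), and the part of these lists in the result was not tested. With the endothelial level as a term, 5 of the 9 interferon genes were lower and the median was -0.041.

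By treatment, 8 of the 9 genes were lower in mdx:Utrn+/- under saline, beside 51.9% of all genes, and Isg15 was level (0.00, 95% interval -0.64 to 0.64). The median was -0.28 against -0.015 over all genes. limma called 0% of genes and 0 members (489 genes, 3.82%, at an unadjusted p under 0.05), and limma-voom called 0, with 470. Endothelial markers were lower in 15 of 15 cases (median -0.65) and macrophage markers higher in 17 of 17 (median 0.39). Erythroid markers were higher in 5 of 5 cases (median 1.23) and neutrophil markers in 4 of 4 (median 0.96). With the endothelial term the median of the 9 interferon genes was 0.13, and 8 of them were higher. Under PB1046 all 9 were lower in mdx:Utrn+/-, beside 45.8% of all genes, with a median of -0.27 against 0.026. Endothelial markers were lower there in 10 of 15 cases and higher in 5 (median -0.03). With the endothelial term all 9 interferon genes were still lower, with a median of -0.24 and 0 called. Macrophage markers (17 of 17, median -0.45) and fibroblast markers (12 of 12, median -0.68) were lower there as well, cardiomyocyte markers were higher (12 of 12, median 0.33), and their part in the result was not tested. Isg15 was lowest of the 9 (-0.61, -1.25 to 0.03, limma unadjusted p = 0.0587, adjusted p = 0.999), and limma called 0% of genes (226, 1.77%, at an unadjusted p under 0.05), limma-voom 0, with 226. The groups overlapped for all 9, beside 2.87% of all genes wholly lower and 2.88% wholly higher. Without replicate 1 of mdx:Utrn+/- PB1046 the median was 0.044 and 3 genes were lower, and without replicate 1 of mdx PB1046 it was -0.71 and all 9 were lower.

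**Figure D3:**
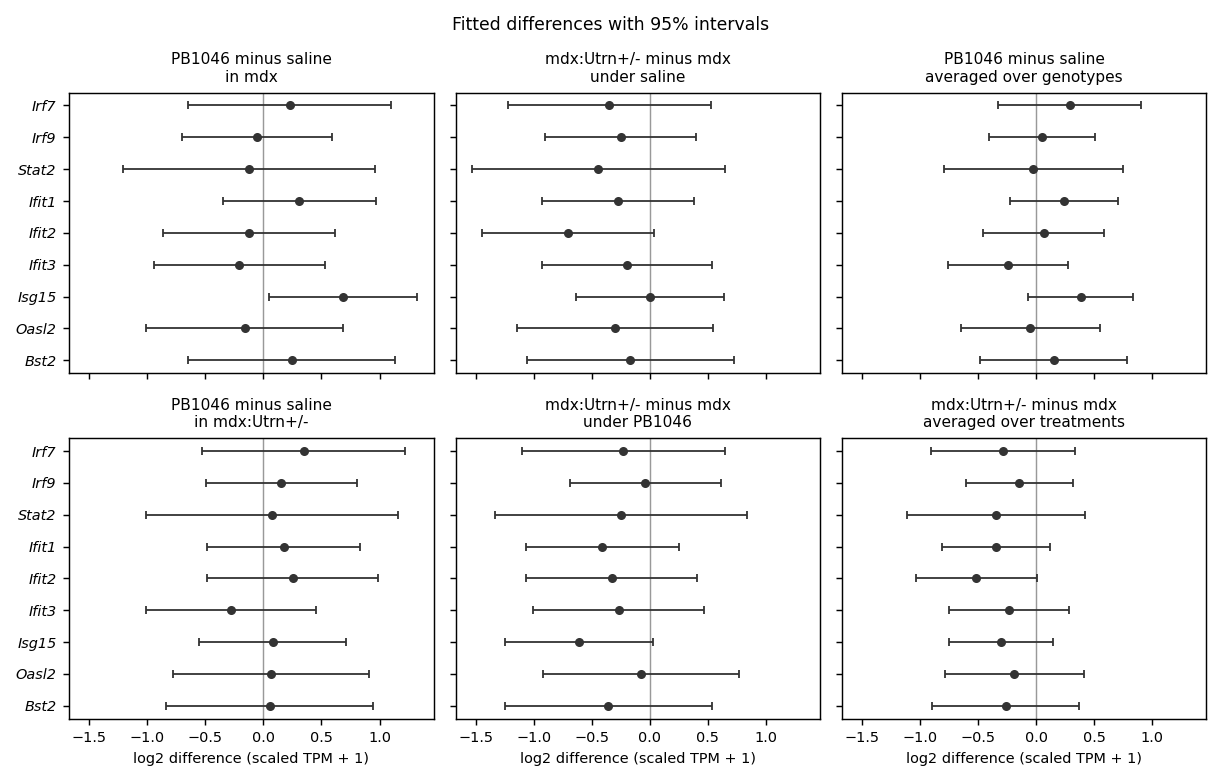
Fitted log2 differences of the 9 genes on the scale log2(scaled TPM + 1), with 95% intervals from limma on all 12 libraries, for both treatment comparisons, both genotype comparisons (mdx:Utrn+/- minus mdx) and their averages. The interval of Isg15 for PB1046 in mdx (0.05 to 1.32) lies above 0, and no other interval in the panels leaves 0 out.

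Without scaling between libraries all genes shifted, by a median of 0.14 and 0.15 for PB1046 in mdx and in mdx:Utrn+/- and by -0.20 for genotype under either treatment. The 9 genes then had medians of 0.13, 0.22, -0.47 (saline) and -0.51 (PB1046). Relative to all genes the genotype medians remain lower in mdx:Utrn+/-, while that for PB1046 in mdx is 0.13 against 0.14.

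The authors' deposited table likewise gives no gene a false discovery rate under 0.05 in any of its 6 comparisons of groups. Its log2 values run as the second named group minus the first. For Isg15 the authors' deposited table, made with edgeR across all genes, lists -0.78 for mdx saline minus mdx PB1046 (unadjusted p = 0.0368, false discovery rate 1). For Ifit2 the authors' deposited table (edgeR) lists 0.74 for mdx saline minus mdx:Utrn+/- saline (unadjusted p = 0.0384, false discovery rate 0.935).

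The same 5 libraries were highest in endothelial markers. The 15 endothelial genes summed to 1494, 4964 and 1829 TPM in mdx:Utrn+/- PB1046, to 1222, 1452 and 1591 TPM in mdx:Utrn+/- saline, to 970.5, 4198 and 7272 TPM in mdx PB1046 and to 1444, 2808 and 3743 TPM in mdx saline. The 5 libraries with the most interferon transcripts held 2808 to 7272 TPM of endothelial markers and the other 7 held 970.5 to 1829 TPM. Per 100 TPM of endothelial markers, the 9 genes gave 5.16 to 9.13 TPM in these 5, against 6.73 to 11.8 TPM in the remaining 7. Utrn followed the same order, with 9.244 to 18.29 TPM in the 5 libraries and 3.315 to 8.917 TPM in the other 7. The summed TPM of the 12 cardiomyocyte markers overlapped, at 104700 to 137800 TPM in the 5 libraries against 127100 to 145600 TPM in the remaining 7. On the scaled log2 values their mean centred level did not overlap, at -0.71 to -0.02 in the 5 and 0.00 to 0.34 in the 7. The scaling factors that divide these values were themselves above 1 in the 5 libraries (1.02 to 1.32) and below 1 in the 7 (0.842 to 0.973). The part of the cell mix in the interferon levels was not tested beyond the endothelial term given above.

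Macrophage markers did not order the libraries in this way. mdx:Utrn+/- saline replicate 1 and mdx PB1046 replicate 3 each held 1351 TPM over 17 macrophage genes, the highest of the series, with 143.7 and 375.4 TPM of interferon transcripts. mdx saline replicate 3 held the fewest macrophage transcripts, 193.5 TPM, and 211.9 TPM over the 9 genes. No macrophage term was fitted, so the part of macrophages in the interferon levels was not tested. Of the 5 libraries highest in interferon transcripts, 3 were among the 5 highest in macrophage markers, 3 in fibroblast markers and 2 in the ribosomal precursor entry Rn45s. Siglech, a marker of plasmacytoid dendritic cells (the cells known for making the most type I interferon), had 82 reads in all 12 libraries together. Of 5 markers of that cell type outside the 9 genes, Tcf4, which endothelial cells also express, made up nearly all, at 13.8 to 53.2 TPM. The labels number the libraries, and the 4 highest numbers all belong to the 5 libraries and to mdx. The lowest numbers belong to replicate 1 of mdx PB1046, mdx:Utrn+/- PB1046 and mdx:Utrn+/- saline, all among the other 7. What the numbers stand for is not given, and their part in the result was not tested.

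**Figure D4:**
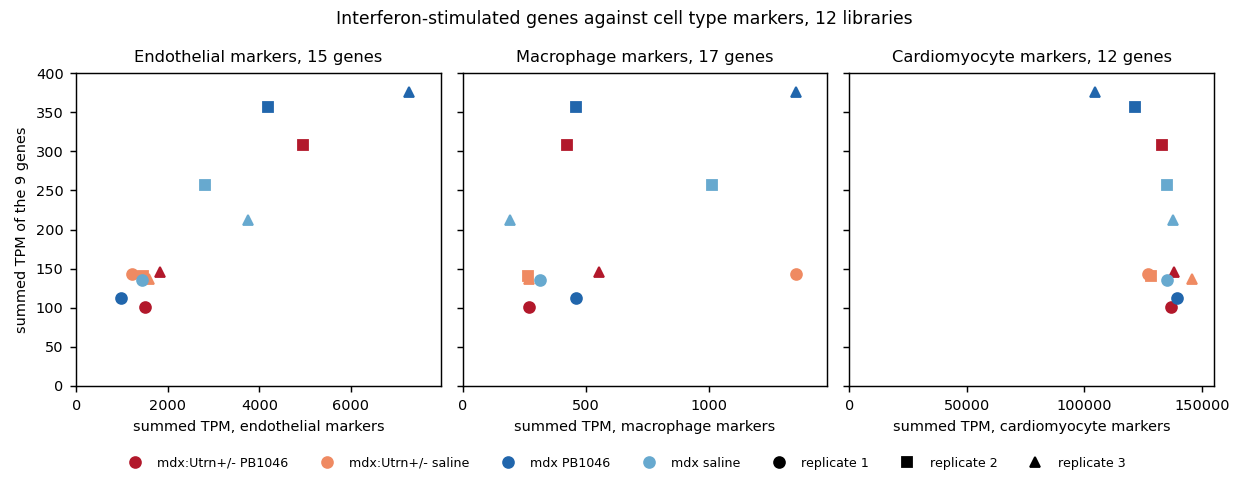
Summed TPM of the 9 interferon-stimulated genes (vertical axis) against the summed TPM of endothelial, macrophage and cardiomyocyte markers in the 12 libraries; colors mark groups and symbols mark replicates. The 5 libraries at 211.9 TPM or more on the vertical axis are those with 2808 TPM or more of endothelial markers, while macrophage markers reach 1351 TPM in a library with 143.7 TPM.

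Among themselves the 9 genes had a median Pearson r of 0.73 over 36 pairs (0.47 to 0.94) across the 12 libraries, which share preparation, depth and the cell mix described above. With group means taken out the median r was 0.79. Within the 7 lower libraries alone it was 0.23, from -0.70 for Irf9 with Isg15 to 0.91 for Ifit3 with Bst2. These 7 were picked by the summed level of the same 9 genes, which narrows their range and tends to lower r. The r of a single pair over 7 libraries is also uncertain. The pairs of Ifit3 with Bst2, Oasl2 with Bst2 (0.82) and Irf9 with Stat2 (0.79) were the most alike there. Over the 12 libraries with group means left in, Isg15 was the lowest partner of Ifit2, Ifit3, Irf7, Irf9 and Stat2. With group means taken out, its r was 0.78 with Ifit3 and 0.73 with Stat2, and it was no longer their lowest partner. It remained that of Ifit2, Irf7 and Irf9.

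The genes outside the 9 whose levels were most like their mean over the 12 libraries were Pip5k1c (r = 0.98), Vash1 (0.97), Pola2 (0.96), Trim30a (0.96), Xaf1 (0.96), Mndal (0.95), Parp10 (0.95) and Lgals9 (0.95). Trim30a, Xaf1, Parp10 and Lgals9 belong to the list of other type I effectors. Pip5k1c makes a membrane phosphoinositide, Vash1 encodes an angiogenesis inhibitor made by endothelial cells, and Pola2 is a subunit of DNA polymerase alpha. With group means removed these r lay between 0.96 and 0.99, and within the 7 lower libraries between 0.61 and 0.94. An r above 0.9 was held by 156 genes (1.22% of those tested), and the median over all tested genes was -0.045.

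The wider interferon response moved with the 9 genes across libraries, and limma called 0 genes in every list and comparison. Of 36 other type I effectors 32 were lower in mdx:Utrn+/- averaged over treatments (median -0.26), beside 51.6% of all tested genes. Under saline 29 were lower (median -0.44), and under PB1046 25 (median -0.09). Slfn5, a Schlafen family gene, averaged 41.1 ± 31.2 TPM in mdx:Utrn+/- PB1046, 19.8 ± 2.95 TPM in mdx:Utrn+/- saline, 62.2 ± 36.5 TPM in mdx PB1046 and 33.7 ± 12.5 TPM in mdx saline (SD, n = 3 each). Lgals9, which encodes galectin-9, averaged 34.4 ± 20.6 TPM in mdx:Utrn+/- PB1046, 19.8 ± 1.47 TPM in mdx:Utrn+/- saline, 48.2 ± 28.1 TPM in mdx PB1046 and 32.0 ± 9.68 TPM in mdx saline. Ifi27, by contrast, differed by no more than 0.11 in any comparison of treatment or genotype. Its range was 26.1 to 82.4 TPM.

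The enzymes that attach and remove Isg15 were lower in mdx:Utrn+/- averaged over treatments in 4 of 4 cases (median -0.32). Under saline 4 were lower (median -0.44), and under PB1046 3 (median -0.18). The mean level of these enzymes put the same 5 libraries on top. Uba7, which activates Isg15, ranged from 7.43 to 41.0 TPM, and Ube2l6, which carries it, from 6.03 to 29.8 TPM. Herc6, the ligase of mouse cells, ranged from 1.50 to 7.01 TPM, and Usp18, which removes Isg15 and dampens the receptor, from 3.40 to 13.5 TPM. For PB1046 in mdx the 4 genes had differences of -0.17 (Uba7), 0.30 (Ube2l6), -0.12 (Herc6) and 0.07 (Usp18), all with a limma adjusted p of 0.999, beside 0.69 for Isg15.

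Of the IFIT and IFITM genes outside the 9, Ifitm1, Ifitm2 and Ifitm3, which hinder virus entry at membranes, were tested. Averaged over treatments, 3 of 3 were lower in mdx:Utrn+/- (median -0.29). With PB1046 3 of 3 were higher in mdx (median 0.44) and 3 of 3 in mdx:Utrn+/- (median 0.33). Ifitm3 was the most abundant, at 217 ± 126 TPM in mdx:Utrn+/- PB1046, 141 ± 21.8 TPM in mdx:Utrn+/- saline, 348 ± 211 TPM in mdx PB1046 and 213 ± 82.5 TPM in mdx saline. In the list of OAS, RNase L and PKR effectors 7 of 9 were lower in mdx:Utrn+/- averaged over treatments (median -0.11). Under saline 8 were lower (median -0.20), and under PB1046 5 (median -0.14). Oas2 ranged from 4.33 to 38.2 TPM, and Eif2ak2, the kinase PKR, from 4.62 to 12.9 TPM. Oas3 did not pass the filter, with at most 1.27 TPM.

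No interferon ligand could be tested: Ifnb1 had 2 reads and Ifng 3 reads in all 12 libraries together, and the other 7 ligands of the list were not analysed here. Of 10 tested receptor and signaling genes, 8 were lower in mdx:Utrn+/- (median -0.14). Jak1 ranged from 28.3 to 55.3 TPM, and Ifngr2, a chain of the interferon gamma receptor, from 87.1 to 170 TPM. The mean centred log2 level of this list was between -0.05 and 0.24 in the 5 libraries high in interferon transcripts and between -0.17 and 0.01 in the other 7. For the 9 genes these ranges were 0.19 to 0.60 and -0.57 to -0.17. Of 8 tested genes in the list of other interferon regulatory factors, 6 were lower in mdx:Utrn+/- averaged over treatments (median -0.08). That list also holds Irf2bp2 and Irf2bpl, which are not interferon regulatory factors themselves. Under saline 3 of the 8 were lower, and under PB1046 6. Irf1, itself an interferon-induced factor, was among the 6 lower on average and ranged from 5.24 to 26.6 TPM. The mean level of that list lay between -0.07 and 0.54 in the 5 libraries and between -0.32 and 0.20 in the 7. Of 13 sensors and adaptors of foreign nucleic acid 10 were lower in mdx:Utrn+/- averaged over treatments (median -0.18). Under saline 6 were lower, and under PB1046 10. Mavs, the adaptor of the RNA sensors, ranged from 22.3 to 41.0 TPM.

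Genes typical of interferon gamma were on average highest in the same 5 libraries. Of 14 tested, 12 were lower in mdx:Utrn+/- averaged over treatments (median -0.31), and with PB1046 in mdx 13 of 14 were lower (median -0.19, none called). Irgm1, a GTPase of autophagy, averaged 23.5 ± 13.0 TPM in mdx:Utrn+/- PB1046, 14.1 ± 2.47 TPM in mdx:Utrn+/- saline, 27.7 ± 11.2 TPM in mdx PB1046 and 26.0 ± 3.93 TPM in mdx saline (SD, n = 3 each). Iigp1, a GTPase that attacks the vacuoles of parasites, averaged 39.9 ± 15.5 TPM in mdx:Utrn+/- PB1046, 32.4 ± 10.3 TPM in mdx:Utrn+/- saline, 45.3 ± 19.3 TPM in mdx PB1046 and 63.0 ± 26.2 TPM in mdx saline. Psmb8, a subunit of the immunoproteasome, ranged from 14.4 to 86.2 TPM.

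**Figure D5:**
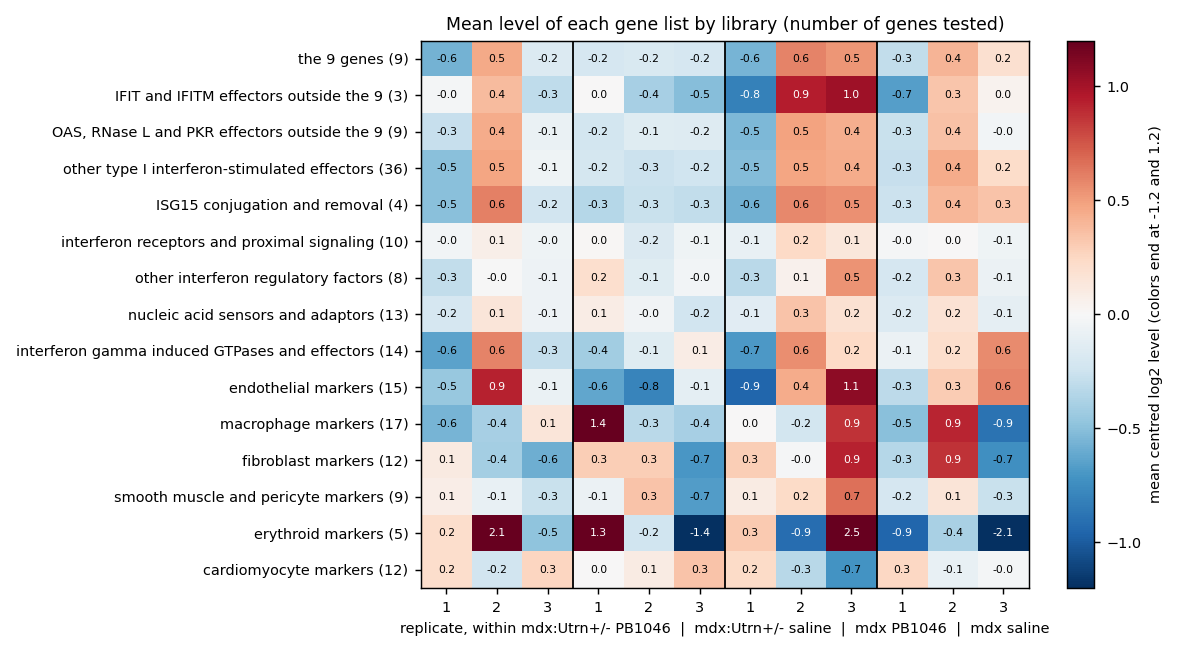
Mean centred log2 level of each gene list (rows, with the number of tested genes) in each library (columns, replicates 1 to 3 within mdx:Utrn+/- PB1046, mdx:Utrn+/- saline, mdx PB1046 and mdx saline); red is above and blue below the mean over 12 libraries. The rows of the 9 genes, of other type I effectors, of the Isg15 enzymes and of endothelial markers are highest in the same 5 libraries, while the receptor row varies less than these.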

How the data were processed

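Poly-A RNA of isolated mouse cardiomyocytes was measured in 12 libraries of 4 groups, read from the labels. The deposited table gives TPM per gene and library, although it is named as raw counts: each library sums to 1000000. Its group comparisons hold the authors' log2 fold changes, average log2 values, likelihood ratio scores, p-values and false discovery rates, and the submitters' processing notes name edgeR and mm10. No source used here gives the aligner or the counter. Whole reads were recovered from the TPM steps (100% of values whole within 0.1 reads; 7234100 to 25458194 reads per library) and used for depth and limma-voom.

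TPM were divided by trimmed-mean factors (30% of log ratios and 5% of levels trimmed) and put on the log2(TPM + 1) scale, which understates changes of low genes. limma 3.58.1 in R 4.3.3 fitted a mean per group to all 12 libraries (8 residual degrees of freedom, trend and robust moderation) for 12798 genes, with 7 contrasts. The threshold was a Benjamini-Hochberg adjusted p of 0.05 over all tested genes. The code of the fit was run on simulated counts whose genes varied independently of each other. These lack the variation that genes share between the real libraries, so the run does not show what the fit can detect here. Alternatives changed scaling, pseudocount (0.1), filter, samples and model, added a replicate block, endothelial markers or Rn45s as a term, and left out each library in turn.

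The 9 members and the gene lists were chosen with earlier results of these data known. All 9 were described. Up to 4 genes per list were eligible by name, those with the highest mean level, and the genes most like the members were the 8 with the highest Pearson r with their mean level, predicted genes left out. Motifs were searched in RefSeq promoters of GRCm38.p6. Starts in the deposited table are 0-based and are given plus 1.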

Additional observations from a re-analysis of the deposited data

How the results depend on the processing

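No member passed an adjusted p of 0.05 in any of 1017 refits of a member in a contrast with limma or limma-voom, where the smallest adjusted p was 0.371. The sign of a fitted difference turned in 125 of them, 39 by a changed setting and 86 by leaving out a library, and in the fit reported above the 95% interval of each of these members held 0. The cause was not tested.

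With no scaling factor, PB1046 minus saline in mdx became Irf9 0.13, Stat2 0.062, Ifit2 0.053 and Oasl2 0.016, mdx:Utrn+/- minus mdx under saline became Isg15 -0.20, PB1046 minus saline averaged over genotypes became Stat2 0.14 and Oasl2 0.11. With the endothelial marker level as a term, PB1046 minus saline in mdx:Utrn+/- became Irf7 -0.057, Irf9 -0.19, Stat2 -0.52, Ifit1 -0.14, Ifit2 -0.06, Isg15 -0.17, Oasl2 -0.33 and Bst2 -0.40. That term gave Irf7 0.094, Irf9 0.12, Stat2 0.21, Ifit1 0.073, Ifit3 0.16, Oasl2 0.13 and Bst2 0.33 for mdx:Utrn+/- minus mdx under saline. That term gave Irf9 -0.12, Ifit2 -0.092 and Bst2 -0.078 for PB1046 minus saline averaged over genotypes. That term gave Irf9 0.058, Stat2 0.006, Oasl2 0.043 and Bst2 0.007 for mdx:Utrn+/- minus mdx averaged over treatments. That term gave Irf7 -0.29, Irf9 -0.13, Stat2 -0.40 and Oasl2 -0.17 for the difference of the PB1046 responses (mdx:Utrn+/- minus mdx). With log2 Rn45s, the ribosomal precursor entry, as a term, PB1046 minus saline in mdx became Irf9 0.002 and Ifit2 0.083, mdx:Utrn+/- minus mdx under saline became Isg15 -0.12, mdx:Utrn+/- minus mdx under PB1046 became Oasl2 0.064, the difference of the PB1046 responses (mdx:Utrn+/- minus mdx) became Irf7 -0.038. In limma-voom on recovered reads, mdx:Utrn+/- minus mdx under saline became Isg15 -0.026. The median of the 9 genes for the difference of the PB1046 responses was -0.40 with the endothelial term, and -0.36 to 0.37 over the refits that leave out a library. Over those refits the medians were -0.22 to 0.36 for PB1046 in mdx, -0.12 to 0.31 for PB1046 in mdx:Utrn+/-, -0.48 to -0.077 for genotype under saline and -0.71 to 0.044 for genotype under PB1046. They were -0.063 to 0.28 for PB1046 and -0.49 to -0.15 for genotype, each averaged. The number of genes past an adjusted p of 0.05 was 0 in every setting and contrast except the difference of the PB1046 responses, where it was 0 to 1 over the refits. The 1 gene, Tmem181b-ps, is named after its values were seen and appeared without mdx:Utrn+/- saline replicate 3 (log2 2.53, limma adjusted p = 0.0303).

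Leaving out each library in turn, PB1046 minus saline in mdx spanned -0.12 to 0.70 for Irf7, -0.22 to 0.24 for Irf9, -0.44 to 0.36 for Stat2, -0.26 to 0.12 for Ifit2, -0.40 to 0.15 for Ifit3, -0.49 to 0.24 for Oasl2 and -0.045 to 0.70 for Bst2. PB1046 minus saline in mdx:Utrn+/- spanned -0.07 to 0.36 for Irf9, -0.45 to 0.38 for Stat2, -0.01 to 0.31 for Ifit1, -0.057 to 0.71 for Ifit2, -0.46 to 0.019 for Ifit3, -0.12 to 0.23 for Isg15, -0.21 to 0.22 for Oasl2 and -0.27 to 0.32 for Bst2. The contrast mdx:Utrn+/- minus mdx under saline spanned -0.17 to 0.16 for Isg15 and -0.44 to 0.005 for Bst2. The contrast mdx:Utrn+/- minus mdx under PB1046 spanned -0.71 to 0.12 for Irf7, -0.34 to 0.12 for Irf9, -0.77 to 0.056 for Stat2, -0.64 to 0.13 for Ifit2, -0.63 to 0.029 for Ifit3 and -0.48 to 0.17 for Oasl2. PB1046 minus saline averaged over genotypes spanned -0.063 to 0.20 for Irf9, -0.29 to 0.22 for Stat2, -0.091 to 0.29 for Ifit2, -0.21 to 0.15 for Oasl2 and -0.015 to 0.38 for Bst2. The difference of the PB1046 responses (mdx:Utrn+/- minus mdx) spanned -0.36 to 0.46 for Irf7, -0.084 to 0.42 for Irf9, -0.33 to 0.51 for Stat2, -0.48 to 0.072 for Ifit1, -0.43 to 0.23 for Ifit3, -0.18 to 0.55 for Oasl2 and -0.65 to 0.10 for Bst2.

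For the 9 genes, replicate 1 of every group was among the 7 lower libraries. Its sums were 100.6 TPM in mdx:Utrn+/- PB1046, 143.7 TPM in mdx:Utrn+/- saline, 111.9 TPM in mdx PB1046 and 135.7 TPM in mdx saline. It was the lowest of its group except in mdx:Utrn+/- saline, and the cause was not tested. Over all tested genes, same-numbered libraries of different groups did not consistently deviate together. The correlation of their deviations from the group means was -0.45 to 0.49 over 18 pairs (median 0.043), and 5 pairs were over 0.1. Every group held the same replicate numbers, so a replicate block could change only the errors and not the log2 differences. The unchanged differences therefore say nothing of an effect of replicate number. With the block 0 genes were called in all 7 contrasts. The smallest limma adjusted p of a member was then 0.713 (Ifit2, mdx:Utrn+/- minus mdx under saline), against 0.867 for the same gene and contrast without the block.

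Isg15 had the fewest reads of the 9 genes, 47 to 207 a library. With 3 libraries a group the intervals were wide, and differences within them were not detectable. Genotype and the library numbers of the labels cannot be fully told apart for the higher libraries of mdx.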
